A study of Homo sapiens with 12 samples.

Results

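The 53 genes described here are T-lymphoid and immune genes on human chromosome 2, a list of T cell surface molecules, signalling proteins, transcription factors, cytokine and chemokine genes, integrins, and apoptosis regulators. They were listed by name and make up 53 of the 1247 protein-coding genes of the chromosome in GENCODE version 44; the other 1194 serve as the background. The study asked how gain-of-function mutations of STAT5 act in T cell acute lymphoblastic leukemia (T-ALL), and performed STAT5B ChIP-Seq in 6 established human T-ALL cell lines. DND-41, KOPT-K1, SUP-T13, and HSB-2 are labelled as having high STAT5 activation, that is, much STAT5 phosphorylated on tyrosine (pY-STAT5), and LOUCY and JURKAT as having low activation. All 6 lines are labelled as precursor T cells of wild-type genotype and were grown without a stated treatment, although the study describes KOPT-K1 as carrying a gain-of-function mutation in the SH2 domain of STAT5B, and DND-41 as having no STAT5B mutation but an activating one in IL7R and a loss-of-function one in PTPRC. Each line is a single culture-adapted leukemia with 1 STAT5B library, whose peaks the authors called against the input of the same line. Peak lists hold no expression values, so the labelled cell type could not be checked against markers.

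STAT5A and STAT5B are transcription factors that are phosphorylated by JAK kinases downstream of cytokine receptors such as the IL-7 receptor, after which they pair through their SH2 domains, enter the nucleus, and bind palindromic DNA. In T cell progenitors this pathway supports survival and expansion, and in T-ALL it can be switched on permanently by mutations in the receptor, the kinases, or STAT5B itself. Many of the genes listed here act further along T cell development or activation, such as the CD8 coreceptor, the CD28 family of costimulatory and inhibitory receptors, and the kinase ZAP70.

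Peaks are intervals where the STAT5B library holds more reads than input, and the summit is the base of highest enrichment. The lists held 1146 peaks on chromosome 2 in DND-41, 848 in KOPT-K1, 1511 in SUP-T13, 435 in HSB-2, 470 in JURKAT, and 242 in LOUCY. The 4 high pY-STAT5 lines had 985 ± 456 (SD, n = 4) and the 2 low lines 356 ± 161 (n = 2), and the groups overlapped, since HSB-2 had fewer peaks than JURKAT (exact permutation test over cell lines, two-sided, p = 0.267; the smallest p this design allows is 0.133). Intervals covered between 60.3% (KOPT-K1) and 82.2% (SUP-T13) of the chromosome, and the longest measured 91.6 Mb (JURKAT). A gene was therefore described by summits: within 2 kb of an annotated start site (a promoter summit), there or in the gene body (an assigned summit), or within 50 kb of the gene. The lists state no read depth, and fold enrichment and −log10 q are the deposited values of each list, which limits their comparison between lines.

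A promoter summit was found at 8 of the 53 genes in DND-41, 4 in KOPT-K1, 8 in SUP-T13, 1 in HSB-2, 5 in JURKAT, and 0 in LOUCY. Of the other genes of the chromosome, 13.2% had one in DND-41, 5.11% in KOPT-K1, 11.7% in SUP-T13, 4.77% in HSB-2, 4.77% in JURKAT, and 4.36% in LOUCY. The counts of the listed genes lay near these shares, at most 2.47 genes above (JURKAT) and 2.31 below (LOUCY) what the share of the other genes gives for 53 genes. Assigned summits were present at 20 listed genes in DND-41, 9 in KOPT-K1, 11 in SUP-T13, 8 in HSB-2, 8 in JURKAT, and 6 in LOUCY. The background shares were 24.3% in DND-41, 13.9% in KOPT-K1, 17.7% in SUP-T13, 9.63% in HSB-2, 7.79% in JURKAT, and 8.63% in LOUCY. On the scale of 53 genes the listed counts were 7.13 genes above these shares in DND-41 (37.7% of the list), 3.87 in JURKAT (15.1%), and 2.90 in HSB-2, and near them, by at most 1.63 genes, in KOPT-K1, SUP-T13, and LOUCY.

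Within 50 kb, summits were found for 28 listed genes in DND-41, 18 in KOPT-K1, 15 in SUP-T13, 11 in HSB-2, 9 in JURKAT, and 10 in LOUCY. The other genes reached 37.5% in DND-41, 24.0% in KOPT-K1, 24.0% in SUP-T13, 16.2% in HSB-2, 13.1% in JURKAT, and 15.7% in LOUCY. The order of the lines was thus led by DND-41 for both sets of genes. The means for assigned summits were 12 ± 5.48 listed genes in the high lines (n = 4) and 7 ± 1.41 in the low lines (n = 2). The difference of 5 was smaller than the SD among the high lines. It was 2.33 without DND-41 and 1.5 with equal numbers of the strongest peaks. With a −log10 q of at least 5 it was 4.75, and with intervals of at most 100 kb 3.75. The other genes had means of 8.21% in the low lines and 16.4% in the high lines. With intervals counted by any overlapping base the difference was -2.5, which rests on KOPT-K1, the only line outside 42 to 43: 42 listed genes lay under an interval in DND-41, 33 in KOPT-K1, 43 in SUP-T13, 42 in HSB-2, 42 in JURKAT, and 43 in LOUCY. These counts followed the background shares of 75.0% in DND-41, 60.9% in KOPT-K1, 82.5% in SUP-T13, 76.9% in HSB-2, 78.2% in JURKAT, and 80.3% in LOUCY.

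**Figure D1:**
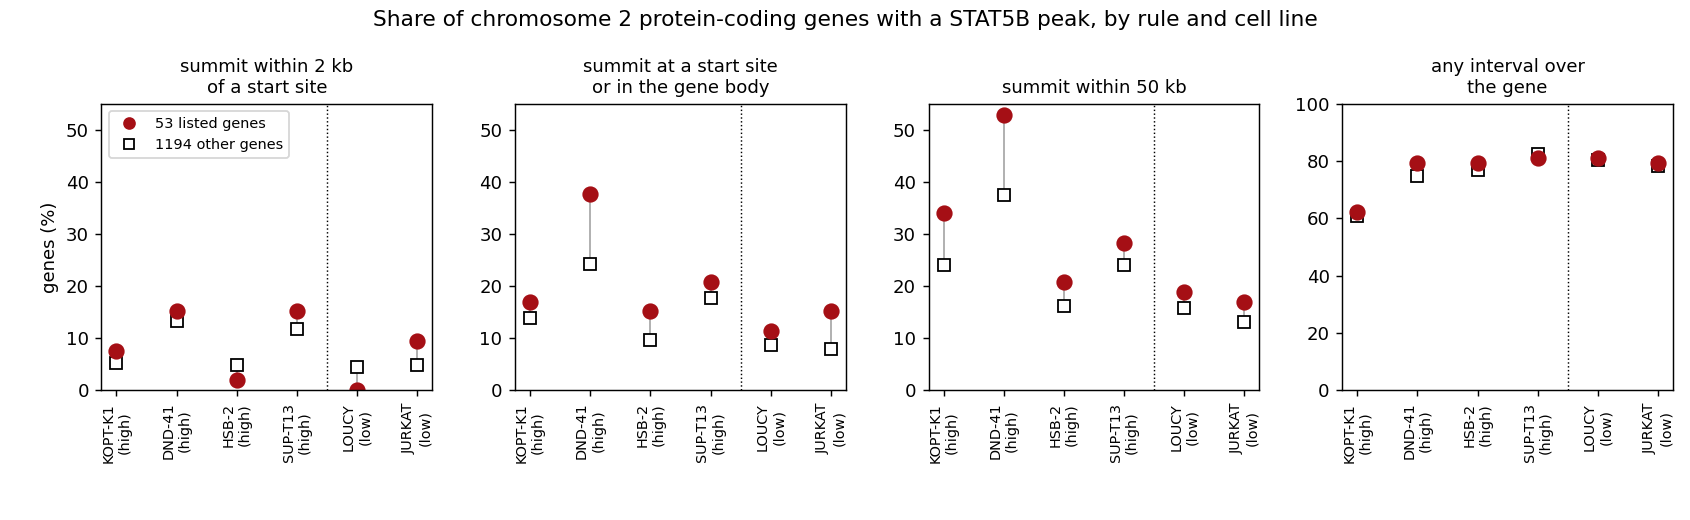
Percent of the 53 listed genes (filled circles) and of the 1194 other protein-coding genes of chromosome 2 (open squares) that met each rule, for each cell line; the dotted line parts the 4 high from the 2 low pY-STAT5 lines, and the right panel has a longer axis. For assigned summits and for summits within 50 kb the circle is above the square in every line, with the widest gap in DND-41.

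Over the 6 lists together, 18 of the 53 genes (34.0%) had a promoter summit in at least 1 line, against 29.1% of the other genes; without DND-41 the count was 11. Assigned summits in any line were present at 25 (47.2%, others 41.4%), and summits within 50 kb at 33 (62.3%, others 54.8%). Of the listed genes, 9 had no interval over them in any line, as had 179 of the 1194 other genes. The 9 were ID2 and MYCN near the start of the chromosome, and SP110, SP140, SP100, INPP5D, ACKR3, HDAC4, and PDCD1 near its end. The first summit of any list lay 13.7 Mb and the last 229.7 Mb from the start of the 242 Mb chromosome, and 8 of these genes (15.1% of the list, others 13.7%) lie outside that range; MYCN lies inside it. The lists thus gave no value at the inhibitory receptor gene PDCD1 or at the inhibitor of differentiation ID2, and an absence of binding there cannot be told apart from the absence of peaks on these ends of the chromosome.

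**Figure D2:**
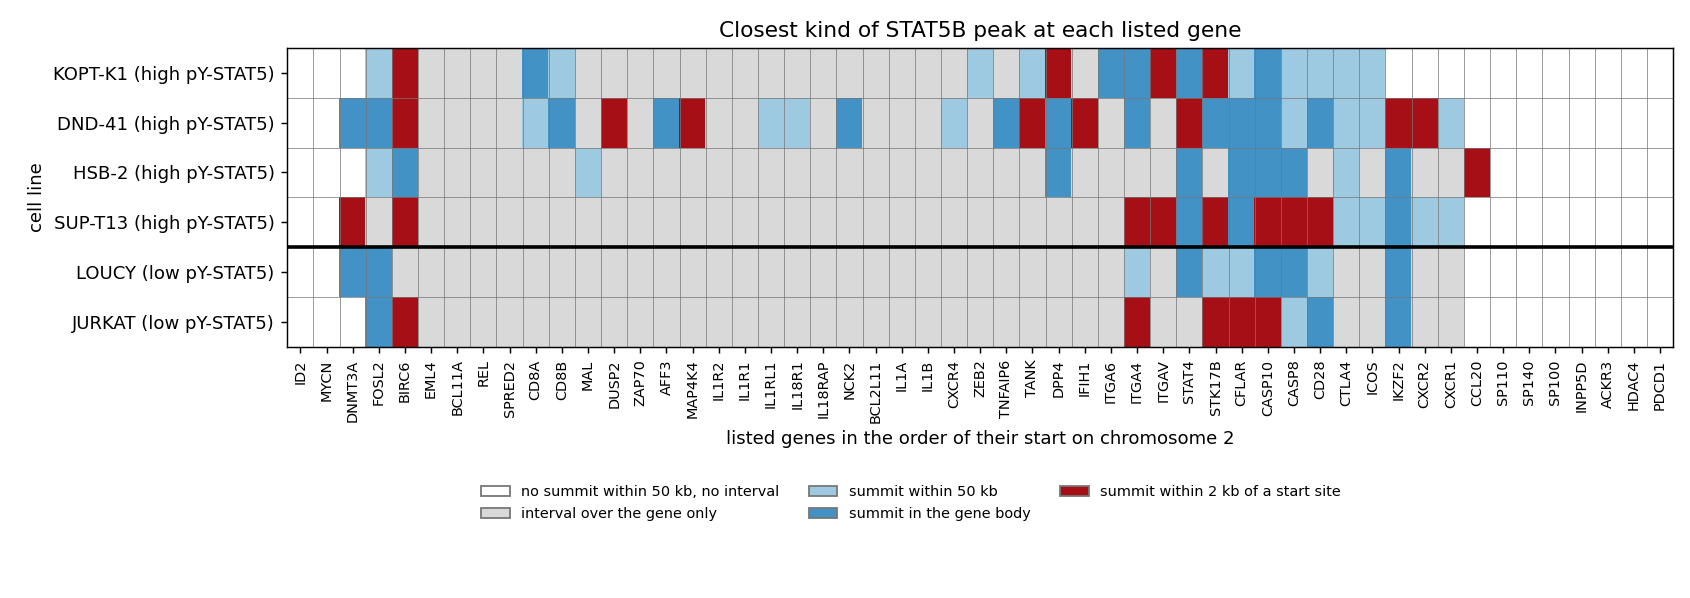
For each listed gene (columns, in chromosomal order) and cell line (rows, high pY-STAT5 above the thick line), the nearest kind of peak: a summit at most 2 kb from a start site, in the gene body, within 50 kb, an interval over the gene without a summit within 50 kb, or neither. Grey fills most of the middle of the chromosome, and CASP10 is the only column with a promoter or body summit in all 6 lines.

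Among the 7 genes of T cell receptor-proximal and cytoplasmic signalling, MAL and NCK2 had the 2 highest −log10 q values near listed genes, each in 1 line only. MAL, a raft protein of T cell membranes, had a summit 48.9 kb from its nearest start site, downstream of the gene, in HSB-2 only. It had 4.17-fold enrichment and a −log10 q of 97.9, the highest among the 299 summits near listed genes. This MAL summit belonged to an interval of 5.24 Mb. NCK2, an adaptor that links phosphotyrosines to the cytoskeleton, had a summit in intron 1 in DND-41 only (fold enrichment 5.17, −log10 q 65.8). The NCK2 summit ranked directly after that of MAL and belonged to an interval of 386 kb. MAP4K4, a kinase upstream of JNK, had a promoter summit 589 bp from a start site in intron 2 in DND-41 only (3.03-fold, −log10 q 24.7), plus a summit 25.3 kb upstream (3.87-fold). The other 5 lines listed no summit within 50 kb of these 3 genes.

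The DNA around the strongest summits is printed because these windows hold the STAT palindrome TTCNNNGAA, which reads the same on both strands and was searched within 50 bp of each summit. Each line gives the gene named for the summit and 101 bases of the plus strand of GRCh38 centred on it, with the palindrome in capitals; shown are the summits with the highest −log10 q that hold it, taking 1 per locus and none that overlaps an untranslated region. The windows are chr2:95074630-95074730 (MAL, HSB-2), chr2:105770137-105770237 (NCK2, intron 1, DND-41), chr2:100089057-100089157 (AFF3, intron 4, DND-41), chr2:191070564-191070664 (STAT4, intron 5, DND-41), chr2:101699069-101699169 (MAP4K4, intron 2, DND-41), chr2:161952861-161952961 (downstream of DPP4, HSB-2), chr2:86827173-86827273 (CD8B gene record, DND-41), and chr2:203836058-203836158 (upstream of CTLA4, DND-41).
MAL: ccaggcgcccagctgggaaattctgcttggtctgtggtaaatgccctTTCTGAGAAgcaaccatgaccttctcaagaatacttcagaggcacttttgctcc
NCK2: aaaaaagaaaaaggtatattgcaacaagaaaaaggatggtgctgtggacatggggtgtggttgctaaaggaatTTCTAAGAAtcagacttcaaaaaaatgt
AFF3: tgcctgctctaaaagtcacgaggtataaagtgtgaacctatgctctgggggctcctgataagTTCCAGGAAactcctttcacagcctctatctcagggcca
STAT4: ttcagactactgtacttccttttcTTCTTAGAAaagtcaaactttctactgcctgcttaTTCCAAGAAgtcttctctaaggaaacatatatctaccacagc
MAP4K4: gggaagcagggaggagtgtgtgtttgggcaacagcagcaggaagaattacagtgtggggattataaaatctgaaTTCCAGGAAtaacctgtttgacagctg
DPP4: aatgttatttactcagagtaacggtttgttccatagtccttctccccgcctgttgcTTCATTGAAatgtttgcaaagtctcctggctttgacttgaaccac
CD8B: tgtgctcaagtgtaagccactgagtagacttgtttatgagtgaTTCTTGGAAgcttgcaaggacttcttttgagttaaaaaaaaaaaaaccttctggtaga
CTLA4: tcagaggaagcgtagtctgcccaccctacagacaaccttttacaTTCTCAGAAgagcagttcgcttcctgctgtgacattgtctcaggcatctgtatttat
The window of STAT4 held the palindrome at 2 places, and the other windows at 1. A match describes these letters only.

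DUSP2, a phosphatase of MAP kinases induced on T cell activation, had a promoter summit 72 bp from a start site, in exon 1, in DND-41 only (2.74-fold, −log10 q 15.5, no palindrome). For ZAP70, the kinase recruited to the T cell receptor, the study reports STAT5B binding, specifically in its lines with high STAT5 activity. The study used peak signal and peak location, a measure unlike the summits counted here. In the lists ZAP70 lay inside an interval in all 6 lines, high and low, and had no summit within 50 kb in any. The same was true of SPRED2, an inhibitor of the RAS-MAP kinase route, and the phosphatase gene INPP5D had no interval. Of the 7 genes of this group, 3 had an assigned summit in DND-41, where 24.3% of the other genes of the chromosome had one, and 0 in each of the other lines, where 7.79 to 17.7% had one.

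CD8A and CD8B encode the chains of the CD8 coreceptor and lie next to each other. Their surroundings held 4 summits in DND-41, 1 in KOPT-K1, and 0 in each of the other lines. The KOPT-K1 summit was in exon 6 of CD8A (4.61-fold, −log10 q 28.3), belonged to an interval of 16.0 Mb, and had TTCTGAGAA within 50 bp. The strongest of DND-41 was in intron 3 of CD8B (3.58-fold, −log10 q 30.9, no palindrome), and another in the gene record of CD8B had a fold enrichment of 2.84 and the palindrome shown above. Peaks at CD8 were thus listed in 2 high pY-STAT5 lines, at different places, and in the other 4 lines both genes lay under intervals without a summit nearby.

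In the CD28 family, CTLA4 (chr2:203853888-203873965, plus strand), the inhibitory counterpart of CD28, had 2 summits within 50 kb in DND-41, 1 in KOPT-K1, 2 in SUP-T13, 1 in HSB-2, and 0 in LOUCY and JURKAT. It was the only listed gene whose high and low lines did not overlap (exact permutation test over 6 lines, two-sided, p = 0.133, the smallest possible). Of all 1247 genes, 8 (0.642%) had a summit within 50 kb in all 4 high lines and neither low line, CTLA4 among them, and the reverse pattern was found for 0 genes (0%). The count of 8 became 1 with a −log10 q of at least 5 and 2 with equal numbers of the strongest peaks. With 1 line left out, which asks for fewer lines, it was 8 to 21. By promoter summits, 0 genes were found in all high lines only and 6 in both low lines only. A call in all high lines asks for a summit in 4 lines and the reverse for a summit in 2. Counts of the 2 directions therefore cannot be set against each other, by promoter summits or within 50 kb. The summits of CTLA4 were not at a shared place: the strongest, 17.8 kb upstream in DND-41, had 3.55-fold enrichment and a −log10 q of 16.4, that of HSB-2 lay 38.4 kb upstream (2.20-fold), that of KOPT-K1 46.9 kb from a start site on the ICOS side (2.00-fold, −log10 q 1.85), and only a place 27.0 to 27.7 kb upstream recurred, in DND-41 (2.69-fold) and SUP-T13 (2.11-fold), 640 bp apart. In LOUCY and JURKAT the gene was covered by intervals of 4.52 Mb and 2.06 Mb, whose summits lay elsewhere.

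CTLA4 lost this pattern when only peaks with a −log10 q of at least 5, only intervals of at most 100 kb (that of HSB-2 measured 121 kb), or equal numbers of the strongest peaks were used, since at least 1 high line then had no summit left near the gene. With the window widened to 100 kb it kept the pattern. Its summit with the palindrome is the last of the windows shown above.

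CD28 itself, the main costimulatory receptor, had 4 summits within 50 kb in DND-41, 1 in KOPT-K1, 7 in SUP-T13, 0 in HSB-2, 1 in JURKAT, and 1 in LOUCY. Its promoter summit, 5 bp from a start site, was found in SUP-T13 only (1.68-fold, −log10 q 1.66). The summits of KOPT-K1 (1.88-fold) and LOUCY (1.47-fold) downstream of the gene were 42 bp apart, so a place was shared between a high and a low line. ICOS, the inducible costimulator, had 2 summits in DND-41, 1 in KOPT-K1, 3 in SUP-T13, 0 in HSB-2, and 0 in LOUCY and JURKAT, all outside the gene; the strongest, 69.7 kb from a start site in SUP-T13, had a fold enrichment of 2.64, a −log10 q of 6.66, and TTCCCAGAA within 50 bp. No member of the family had an assigned summit in KOPT-K1, HSB-2, or LOUCY. Of the other genes of the chromosome, 13.9%, 9.63%, and 8.63% had one in these lines. For a family of 4 genes, a count of 0 lies near these shares.

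STAT4 (chr2:191029576-191151596, minus strand), a relative of STAT5 that transmits signals of inflammatory cytokines, had 6 summits within 50 kb in DND-41, 2 in KOPT-K1, 4 in SUP-T13, 2 in HSB-2, 0 in JURKAT, and 2 in LOUCY. The gene body held 5 summits in DND-41 and 1 in each of KOPT-K1, HSB-2, SUP-T13, and LOUCY. Its strongest was the narrow DND-41 peak of 1.91 kb in intron 5 shown above (2.38-fold, −log10 q 46.2). HSB-2 had a summit in exon 24 (2.59-fold, −log10 q 16.5) with TTCCTAGAA within 50 bp. The only promoter summit, 484 bp from a start site, was found in DND-41 (1.61-fold, −log10 q 2.97).

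The 5 listed receptors of the IL-1 family (IL1R1, IL1R2, IL1RL1, IL18R1, and IL18RAP) and the ligand genes IL1A and IL1B had no assigned summit in any line, like 58.6% of the other genes of the chromosome. All lay under intervals in all 6 lines, as did 700 of the 1194 other genes. The exception at 50 kb was a DND-41 peak 46.8 kb upstream of IL1RL1 and IL18R1, the receptors of IL-33 and IL-18, with 5.30-fold enrichment and a −log10 q of 20.3 but no palindrome within 50 bp. In LOUCY and JURKAT these 7 genes lay under intervals of 84.1 Mb and 91.6 Mb, each with 1 summit, and each of these intervals covered 21 listed genes.

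Among the apoptosis genes, CASP10 (chr2:201182872-201229428, plus strand), an initiator caspase of death receptors, was the only listed gene with an assigned summit in all 6 lines, shared with 3 of the 1194 other genes (0.251%). CASP10 had 2 summits within 50 kb in DND-41, 1 in KOPT-K1, 6 in SUP-T13, 6 in HSB-2, 1 in JURKAT, and 2 in LOUCY, with no separation of the groups. Its promoter summits were 5 bp from a start site in SUP-T13 (2.69-fold, −log10 q 7.35) and 605 bp in JURKAT (1.82-fold, −log10 q 3.49), and a summit in intron 3 recurred in HSB-2 (1.82-fold) and LOUCY (1.66-fold), 65 bp apart. None of its gene body summits had the palindrome within 50 bp.

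The neighbours CFLAR, an inhibitor of caspase activation, and CASP8, its partner at death receptors, also had summits within 50 kb in all 6 lines, as did 11 of the other genes (0.921%). The 3 genes adjoin, so some summits were counted for several of them. In KOPT-K1 the only summit counted for any of the 3 was the same one, in intron 6 of CASP10 (1.89-fold, −log10 q 1.53). In JURKAT the only summit counted for CASP8 was the promoter summit of CASP10, 49.6 kb from the nearest start site of CASP8. CFLAR had 4 summits in DND-41, 1 in KOPT-K1, 5 in SUP-T13, 4 in HSB-2, 3 in JURKAT, and 2 in LOUCY. Its promoter summit, 89 bp from a start site, was in JURKAT only (1.90-fold, −log10 q 5.23), and an HSB-2 summit 22.4 kb upstream (2.93-fold) had TTCTGAGAA within 50 bp. Further upstream of CFLAR, the summits of LOUCY (1.88-fold) and JURKAT (2.39-fold, −log10 q 8.46) were 46 bp apart, and no high line shared this place. CASP8 had 3 summits in DND-41, 1 in KOPT-K1, 8 in SUP-T13, 6 in HSB-2, 1 in JURKAT, and 3 in LOUCY. It had a promoter summit in SUP-T13 only (685 bp from a start site, 1.85-fold), and a place downstream of it recurred in DND-41 (2.66-fold), HSB-2 (2.03-fold), and SUP-T13 (2.30-fold). In a locus of death receptor signalling, summits were thus listed in both groups, and the promoter summits included JURKAT.

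BIRC6, a large ubiquitin ligase that blocks caspases, had 19 summits within 50 kb in DND-41, 7 in KOPT-K1, 4 in SUP-T13, 5 in HSB-2, 11 in JURKAT, and 0 in LOUCY. It led the list in promoter summits, present in KOPT-K1, DND-41, SUP-T13, and JURKAT. In SUP-T13 (2.06-fold) and JURKAT (1.57-fold) these were 201 bp upstream of the 5′ end of the gene and, in exon 1, 121 bp from another start site, 624 bp apart, while in KOPT-K1 and DND-41 they lay at internal start sites, among them a DND-41 summit in intron 33 (2.36-fold) with TTCTAGGAA within 50 bp. STK17B, an apoptosis-related kinase expressed in lymphocytes, had 7 summits in DND-41, 5 in KOPT-K1, 6 in SUP-T13, 0 in HSB-2, 2 in JURKAT, and 2 in LOUCY. Promoter summits of STK17B were found in KOPT-K1 (1.86-fold), SUP-T13 (2.14-fold and 1.91-fold), and JURKAT (1.59-fold), and a SUP-T13 summit upstream (2.53-fold, −log10 q 7.26) had TTCTGAGAA within 50 bp. BCL2L11, which encodes the pro-apoptotic protein BIM, lay under intervals in all 6 lines without a summit within 50 kb.

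IKZF2, which encodes the Ikaros family factor Helios, had 16 summits within 50 kb in DND-41, 0 in KOPT-K1, 20 in SUP-T13, 8 in HSB-2, 8 in JURKAT, and 5 in LOUCY. A place in intron 6 was the only one near a listed gene with summits in 4 lines, within 599 bp of each other (1.80-fold in DND-41, 1.45-fold in HSB-2, 1.88-fold in SUP-T13, and 1.49-fold in LOUCY), and no palindrome was found there. The promoter summit of IKZF2 was in DND-41 only, at an internal start site (1.96-fold). Together IKZF2 and BIRC6 held 75 of the 165 gene body summits of the list over the 6 lines (45.5%), and the number of body summits per Mb of gene is therefore given with and without them. With them it was 12.2 for the listed and 6.78 for the other genes in DND-41, 3.55 against 4.12 in KOPT-K1, 8.65 against 6.14 in SUP-T13, 4.44 against 2.24 in HSB-2, 4.88 against 2.40 in JURKAT, and 2.88 against 1.34 in LOUCY. Without them the listed genes had 7.09 in DND-41, 2.93 in KOPT-K1, 6.11 in SUP-T13, 2.20 in HSB-2, 1.47 in JURKAT, and 2.20 in LOUCY; no genes were taken off the other side, so these values are not set against it.

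AFF3, a nuclear scaffold of the AF4 family, had its summit in intron 4 in DND-41 only, with 5.84-fold enrichment, the highest near a listed gene, and a −log10 q of 61.9. FOSL2, an AP-1 subunit, had 9 summits within 50 kb in DND-41, 1 in KOPT-K1, 0 in SUP-T13, 1 in HSB-2, 6 in JURKAT, and 2 in LOUCY. Its strongest summit with the palindrome was downstream of the gene in DND-41 (3.08-fold, −log10 q 7.71). ZEB2, a zinc finger repressor, had a single summit, downstream in KOPT-K1 (2.85-fold, −log10 q 5.89), and BCL11A and REL had none within 50 kb in any line. DNMT3A, a DNA methyltransferase, had 3 summits in DND-41, 0 in KOPT-K1, 14 in SUP-T13, 0 in HSB-2, 0 in JURKAT, and 6 in LOUCY; its promoter summits were all in SUP-T13, the nearest 57 bp from a start site in exon 1 (1.77-fold). For DNMT3A, the line LOUCY of the low group stood above 3 of the high lines.

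DPP4 (chr2:161992245-162074394, minus strand), the surface peptidase CD26, had 3 summits within 50 kb in KOPT-K1, 2 in each of DND-41 and HSB-2, and 0 in JURKAT, LOUCY, and SUP-T13 (exact permutation test over 6 lines, two-sided, p = 0.400). Downstream of the gene, the summits of KOPT-K1 (3.22-fold, −log10 q 9.71, interval of 3.14 kb) and HSB-2 (2.72-fold, −log10 q 24.4, interval of 897 kb) lay 34 bp apart and shared the TTCATTGAA of the window shown above. This was the only recurrent place near a listed gene where the summits of more than 1 line had the palindrome. KOPT-K1 also had a promoter summit 17 bp from a start site of DPP4 (2.47-fold), and further summits with the palindrome were a downstream one in KOPT-K1 (TTCTCAGAA, 3.57-fold) and one in intron 2 in DND-41 (TTCCAAGAA, 2.31-fold). SUP-T13 was the high line without a summit at this gene.

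The integrin chain gene ITGA4 had 3 summits within 50 kb in DND-41, 1 in KOPT-K1, 2 in SUP-T13, 0 in HSB-2, 1 in JURKAT, and 1 in LOUCY. Promoter summits of ITGA4 in SUP-T13 (1.88-fold, −log10 q 2.88) and JURKAT (1.91-fold, −log10 q 6.39) were 775 bp apart, so a high and a low line shared this place. ITGAV had promoter summits in KOPT-K1 (677 bp from a start site, 2.00-fold) and SUP-T13 (63 bp, 2.60-fold), and ITGA6 had 4 summits in KOPT-K1 only. TNFAIP6, a matrix protein gene, had 2 summits in DND-41 only, the stronger 2.80-fold. Of the innate sensing genes, IFIH1, an RNA sensor, had a DND-41 summit 1 bp from a start site (3.35-fold, −log10 q 12.8, interval of 3.18 Mb). TANK, an adaptor of NF-κB signalling, had a DND-41 promoter summit 38 bp from an internal start site (3.98-fold, −log10 q 17.1).

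Of the 5 chemokine and chemokine receptor genes, 4 had a summit within 50 kb in at least 1 line (54.8% of the other genes of the chromosome) and 2 an assigned summit (41.4%). CXCR2 had a promoter summit in DND-41 only (2.39-fold), and it had 7 summits within 50 kb in DND-41 and 2 in SUP-T13, and its neighbour CXCR1 had 5 and 1. A SUP-T13 summit (2.42-fold) lay 369 bp from that promoter summit of CXCR2. It was 2.04 kb from the same start site and so outside the 2 kb window. CXCR4, the homing receptor for CXCL12, had a DND-41 summit 6.66 kb upstream (2.97-fold, −log10 q 13.6), and in the other 5 lines none within 50 kb. CCL20, the ligand of CCR6, was under an interval in HSB-2 only, where it had 5 summits within 50 kb, among them the sole promoter summit of that line in the list (2.06-fold). The cytoskeletal gene EML4 lay under intervals in all 6 lines without a summit within 50 kb.

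The widths of the intervals differed between lines more than the number of genes they covered. The median width over the listed genes that had an interval was 0.504 Mb in DND-41, 1.46 Mb in KOPT-K1, 10.4 Mb in SUP-T13, 8.37 Mb in HSB-2, 74.3 Mb in JURKAT, and 56.9 Mb in LOUCY. For the other genes it was 0.908 Mb, 2.56 Mb, 14.8 Mb, 10.3 Mb, 56.9 Mb, and 56.9 Mb, in the same order. Both low lines thus had a wider median interval over the listed genes than any high line. An interval has 1 summit, however many genes it covers. In all 6 lines 32 listed genes were under an interval, and 15 of these (46.9%) had no assigned summit in any line, against 457 of 700 other genes (65.3%). The 15 were EML4, BCL11A, REL, SPRED2, MAL, ZAP70, IL1R1, IL1R2, IL1RL1, IL18R1, IL18RAP, BCL2L11, IL1A, IL1B, and ZEB2. With only intervals of at most 100 kb, the high and low means of assigned summits differed by 3.75, against 5 with all intervals. The part of interval width in the high and low counts was not tested.

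The palindrome was found within 50 bp of 5 of 33 summits near listed genes in KOPT-K1 (15.2%, exact 95% binomial interval 5.11 to 31.9%), 18 of 103 in DND-41 (17.5%, 10.7 to 26.2%), and 6 of 33 in HSB-2 (18.2%, 6.98 to 35.5%). It was found at 3 of 75 in SUP-T13 (4.0%, 0.833 to 11.2%), 1 of 23 in LOUCY (4.35%, 0.110 to 21.9%), and 1 of 32 in JURKAT (3.13%, 0.0791 to 16.2%). The value of SUP-T13, a high pY-STAT5 line, was near those of the low lines, but its interval overlapped those of all 5 other lines, and with a −log10 q of at least 5 its share was 25.0% (2 of 8), against 0 of 4 in LOUCY and 0 of 3 in JURKAT. At the other summits of the chromosome the shares were 16.7% in DND-41, 5.52% in KOPT-K1, 3.76% in SUP-T13, 11.4% in HSB-2, 2.51% in JURKAT, and 2.28% in LOUCY, each inside the interval of the listed genes. Windows 1000 bp to either side of the summits near listed genes had it in 2.43% of cases in DND-41 (0.793 to 5.57%), 3.03% in KOPT-K1, 2.67% in SUP-T13, 3.03% in HSB-2, 0% in JURKAT, and 4.35% in LOUCY. In DND-41 the interval at the summits lay above that of the flanking windows; in the other lines these intervals overlapped. The intervals cover counting error only.

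Of the 34 summits near listed genes with the palindrome, 32 (94.1%) were in high lines, as were 319 of 335 (95.2%) at the other summits of the chromosome; of all summits, with or without it, 81.6% near listed genes and 84.9% elsewhere were in high lines. Of the 34, 17 had a −log10 q of at least 5, out of 70 such summits in all. Only 2 of the promoter summits had the palindrome, those of MAP4K4 and BIRC6 in DND-41. In RefSeq promoters (GRCh38.p14, 250 bases before to 50 after a start), 50 of the listed genes were matched, with 95 entries, of which 6 (6.32%) held TTCNNNGAA, against 7.66% of all 35116 entries; these belonged to BCL11A, IL1R1, IL1B, CASP8, SP110, and HDAC4, and of these only CASP8 had a promoter summit in any line.

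Summits within 1 kb of a summit of another line made up 18.4% of those near listed genes in DND-41, 15.2% in KOPT-K1, 25.3% in SUP-T13, 33.3% in HSB-2, 31.3% in JURKAT, and 34.8% in LOUCY. At the other summits of the chromosome the shares were 13.1%, 6.87%, 6.69%, 25.6%, 21.7%, and 30.6%, in the same order. Only in SUP-T13 did the exact 95% intervals not overlap (16.0 to 36.7% against 5.45 to 8.10%). These intervals treat summits as independent, but of the 75 in SUP-T13, 20 lay within 50 kb of IKZF2 and 14 of DNMT3A. IKZF2 also had 16 in DND-41. The part of such clusters in the SUP-T13 share was not tested. Near listed genes, 28 places were shared by 2 lines, 4 by 3 lines, and 1 by 4 lines, and none by all 6; on the whole chromosome the counts were 247, 36, and 6.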

How the data were processed

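STAT5B ChIP-Seq peak lists of 6 human T-ALL cell lines were used, 1 list per line with no replicate within a line. Per the study's methods and the submitters' notes, reads were filtered with PRINSEQ-lite, aligned to GRCh38 with BWA 0.7.15-r1140, processed with SAMtools 1.4, and MACS2 called peaks relative to the matching input; inputs were not used otherwise. The deposited fold enrichment is a linear ratio over background. The deposited −log10 p and −log10 q values come from the authors' peak caller, and the depth behind them is not given in the sources used here.

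Summits were placed on the 1247 protein-coding genes of chromosome 2 in GENCODE version 44, with positions counted from 1. The members and lists were chosen with earlier results of these data known, so no p was computed over the list. Genes described singly had a promoter summit, assigned summits in 3 or more lines, a strong summit or one with the palindrome and a −log10 q of at least 5, or belonged to the CD28, STAT, IL-1 receptor, or caspase groups; ZAP70 was added because the study names it, and members outside this rule were added after their values were seen. Groups of lines were compared by exact two-sided permutation over the 15 ways to choose 4 of 6 lines. Shares have Clopper-Pearson 95% intervals. Alternatives covered the peak threshold, interval length, number of peaks, windows, motif, and leaving out each line. Results for other genes of the same families are not reported here. Functions were tested on simulated data. Python 3.11.15, NumPy 2.4.6, SciPy 1.17.1, and matplotlib 3.10.9 were used.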

Additional observations from a re-analysis of the deposited data

Results flagged for a closer look

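Among the 4 high pY-STAT5 lines, KOPT-K1 stood far from the others in the number of listed genes under an interval: 33, against 43 in SUP-T13 and 42 in both DND-41 and HSB-2. Of 11 measures of the listed genes compared in this way among these 4 lines, this was the 1 that stood apart, and chance sets a line apart in about 5% of such comparisons. In KOPT-K1 intervals covered 60.3% of chromosome 2, the lowest of the 6 lines, and 60.9% of the other genes were under an interval there. The part of the covered length in this count was not tested.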

How the results depend on the processing

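Of 117 alternative values, 77 stayed within the spread set for their kind, 39 moved further, and 1 reversed; the cause was not tested where none is given. That spread is 1.5 times for a count, the SD among the high lines for the difference in assigned summits, and the exact 95% interval for a share, and it is wide: the difference of 5 counts as within it at 1.5 with equal numbers of the strongest peaks, and so do palindromes at 3 of 23 summits in LOUCY and a share of 6.25% in JURKAT within 100 bp of summits and 30.8% in HSB-2 for peaks with a −log10 q of at least 5. For the chromosome 2 peaks only the direction was compared. Restricting the lists to peaks with a −log10 q of at least 5 leaves fewer peaks: assigned summits were then found at 13 listed genes in DND-41, 1 in KOPT-K1, 3 in SUP-T13, 2 in JURKAT, and 0 in LOUCY, summits within 50 kb at 5 in KOPT-K1, 7 in SUP-T13, 2 in JURKAT, and 4 in LOUCY, promoter summits in any line at 8, and 1 gene of the chromosome separated the groups. The palindrome share became 60.0% in KOPT-K1 (3 of 5), 25.0% in SUP-T13 (2 of 8), and 0% in LOUCY (0 of 4) and JURKAT (0 of 3). With the 242 strongest peaks of each list, assigned summits were found at 9 listed genes in DND-41, 4 in KOPT-K1, 7 in SUP-T13, 8 in HSB-2, 5 in JURKAT, and 6 in LOUCY, so that KOPT-K1 was below both low lines, summits within 50 kb at 7 in KOPT-K1 and 16 in DND-41, and 2 genes separated the groups.

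Counting any overlapping base of an interval gave 42 listed genes in DND-41, 33 in KOPT-K1, 43 in SUP-T13, 42 in HSB-2, 42 in JURKAT, and 43 in LOUCY, 44 with a start site under an interval in any line, and a reversed difference between high and low means of -2.5, which rests on the 33 of KOPT-K1, as all other lines had 42 or 43. Within 10 kb, KOPT-K1 had 10 listed genes with a summit. Searching 100 bp around summits gave palindrome shares of 31.1% in DND-41 and 13.3% in SUP-T13, and asking for a pyrimidine in the fourth and a purine in the sixth place gave 0% in LOUCY. With intervals of at most 100 kb, 9 genes separated the groups, STAT4 among them and CTLA4 not.

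Leaving out each line in turn gave 11 (without DND-41) to 18 listed genes with a promoter summit in any line, differences of 2.33 (without DND-41) to 6.33 in assigned summits, and 8 to 21 separating genes: 8 without DND-41, 20 without KOPT-K1, 21 without SUP-T13, 19 without HSB-2, 21 without JURKAT, and 18 without LOUCY. The difference in chromosome 2 peaks, for which this was added after seeing the data, was 454 to 812. No paired analysis was possible because each replicate number in the high and in the low group stands for a different cell line and only counts the lines of a group. No list gives its depth, so a missing summit cannot be told apart from a shallow library.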

Other observations

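Edges of long intervals recurred between some lines. Intervals over EML4 began at position 32916260 of chromosome 2 in HSB-2, 32916262 in JURKAT, 32916261 in LOUCY, and 32916349 in SUP-T13, a spread of under 100 bp over both groups. The intervals over EML4 in the other 2 high lines began elsewhere, at 32870843 in KOPT-K1 and 41166120 in DND-41. The highest summits of the intervals over the IL-1 receptor genes in SUP-T13 and LOUCY were at the same base, 109199506, with fold enrichments of 4.67 and 5.49. This summit was chosen after its value was seen, and it lies outside the 50 kb window of every listed gene.

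By promoter summits, 6 genes of the chromosome were found in both low lines and no high line (TRIM54, YPEL5, HYCC2, NDUFB3, TUBA4B, and DOCK10) and 0 in the reverse direction, and none of these 6 was a listed gene. By assigned summits, 4 genes were found in all high lines and no low line (PGAP1, ANKRD44, WDR12, and CARF) and 2 in the reverse direction (TRIM54 and NDUFB3). The high direction asks for a summit in 4 lines and the low direction in 2, so their counts cannot be set against each other.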
